A study of Mus musculus with 24 samples.

Results

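The mitosis genes described here are 40 genes for the cyclins, kinases, spindle motors, kinetochore proteins and chromosome proteins that carry a cell through division. They were taken as a named list, matched to the array by gene symbol, with older synonyms accepted. A probe set naming 1 gene was found for 39 of the 40, out of 19938 genes measured in all. Ccnb1, which encodes cyclin B1, was not matched and was not analysed here. Top2a was the 1 member with more than 1 probe set, and its brightest one, by the mean of all arrays, stands for it.

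Expression was measured on 24 whole-transcript arrays of mouse total RNA, in 6 groups of 4. C57epi.1 is a cell line grown from upper reproductive tract epithelium of C57BL/6 mice, and Bm12.4 is such a line from B6(C)-H2-Ab1bm12/KhEgJ mice, whose MHC class II beta chain is mutant. The third kind of cell was C57BL/6 femur bone marrow cultured with GM-CSF into macrophages. Each kind was measured in RPMI medium ("media") and in an inflammatory supernatant, a 33% (v/v) addition of medium conditioned by a Chlamydia-specific CD4 T cell clone and infected epithelial monolayers, with IFN-gamma brought to 4 ng/ml. Each line stands for its strain alone, and the labels do not say whether the 4 replicates were separate cultures, so p-values are set against the spread of these arrays alone, which may be technical.

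Mitosis is started by Cdk1 bound to cyclins A and B, together with the Aurora and Polo-like kinases. Kinesin motors build the spindle, the Ndc80 complex joins it to the kinetochores, and the spindle checkpoint holds back Cdc20, the activator of the anaphase-promoting complex, until every chromosome is attached. Transcripts of these genes are made late in the cell cycle, under the MuvB complex with B-Myb and FoxM1, and are held low in cells that are not dividing by the DREAM complex. Both complexes are known to act through a promoter element called the CHR, often beside CCAAT boxes bound by NF-Y. In a bulk culture, fewer cells in division and less RNA per dividing cell cannot be told apart.

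Promoters of 35 of the 39 measured members were present in a RefSeq table of the mouse assembly GRCm38.p6, as windows of 300 bases, 250 before and 50 after the start of transcription. The CHR motif TTTGAA, searched on both strands, was found in 28 of 35 (80.0%), against 17.3% of the 15614 measured genes with such a window. It lay within 50 bases of the start in 24 of 35 (68.6%), against 4.49%. The CCAAT motif, searched the same way and whose matches can share at most 1 end base with a match of TTTGAA, was found in 26 of 35 (74.3%), against 41.7%, and at least 2 copies of it in 17 of 35 (48.6%), against 14.3%. Both motifs were found in 24 of 35 (68.6%), against 6.89%. Among 36 other mitotic genes with a window, 19 (52.8%) held TTTGAA, and among 26 DNA replication genes 4 did (15.4%). CCAAT was found in 23 (63.9%) and 16 (61.5%) of these lists, and at least 2 copies in 13 (36.1%) and 9 (34.6%). A CCAAT share above that of all measured genes was thus not particular to the members. The letters TTTGAA were not in the windows of Birc5, Bub1, Cenpe, Mad2l1, Melk, Nuf2 and Nusap1. A match of letters is a description and does not show that a factor binds.

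The windows of 4 genes are shown because, of the 7 core genes that hold both motifs, they differed most between the lines and macrophages in media; capitals mark TTTGAA or its reverse complement TTCAAA, and CCAAT or its reverse complement ATTGG. The windows, in the orientation of the gene, are Cdc20 at chr4:118437294-118437593 (minus strand), Plk1 at chr7:122159185-122159484 (plus), Kif11 at chr19:37376132-37376431 (plus) and Top2a at chr11:99024140-99024439 (minus).
Cdc20: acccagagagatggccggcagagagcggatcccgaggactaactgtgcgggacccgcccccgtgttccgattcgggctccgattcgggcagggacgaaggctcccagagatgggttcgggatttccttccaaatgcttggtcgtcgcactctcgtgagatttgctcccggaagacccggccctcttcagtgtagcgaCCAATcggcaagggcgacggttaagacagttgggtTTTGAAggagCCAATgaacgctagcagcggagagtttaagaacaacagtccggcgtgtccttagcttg
Plk1: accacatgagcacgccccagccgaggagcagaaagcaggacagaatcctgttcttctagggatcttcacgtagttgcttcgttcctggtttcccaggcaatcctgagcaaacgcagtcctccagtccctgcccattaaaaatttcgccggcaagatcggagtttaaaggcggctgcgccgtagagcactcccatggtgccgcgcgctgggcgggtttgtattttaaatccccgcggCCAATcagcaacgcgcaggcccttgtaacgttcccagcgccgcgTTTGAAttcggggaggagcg
Kif11: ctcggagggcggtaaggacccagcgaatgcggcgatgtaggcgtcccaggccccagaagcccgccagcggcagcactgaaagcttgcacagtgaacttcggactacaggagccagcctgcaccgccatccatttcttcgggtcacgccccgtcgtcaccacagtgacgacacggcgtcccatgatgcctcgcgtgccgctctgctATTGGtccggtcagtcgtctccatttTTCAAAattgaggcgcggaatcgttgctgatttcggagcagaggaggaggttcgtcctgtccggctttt
Top2a: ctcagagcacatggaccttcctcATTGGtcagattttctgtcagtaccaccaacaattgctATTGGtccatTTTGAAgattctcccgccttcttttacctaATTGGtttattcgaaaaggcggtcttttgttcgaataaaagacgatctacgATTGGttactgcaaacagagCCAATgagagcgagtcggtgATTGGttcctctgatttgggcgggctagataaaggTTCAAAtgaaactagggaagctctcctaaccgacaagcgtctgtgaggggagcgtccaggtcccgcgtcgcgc

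Counted from the start of transcription as base 1, with no base 0, the Cdc20 window held TTTGAA from base -18 and CCAAT from bases -53 and -8. In Plk1, TTTGAA began at base 31, inside the transcribed part, and CCAAT at base -14. Kif11 had both motifs in reverse, from bases -19 and -45. Top2a carried TTTGAA from base -179 and in reverse from base -23, with 6 CCAAT copies between them and around them.

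Mitosis genes were among the abundant transcripts of both lines and were near the middle of all genes in macrophages. The array medians over the 39 members were 9.38 ± 0.64 (SD, n = 4) on the log2 scale in C57epi.1 media, 9.22 ± 0.19 in C57epi.1 supernatant, 8.4 ± 1.32 in Bm12.4 media and 8.93 ± 0.43 in Bm12.4 supernatant. In macrophages they were 6.64 ± 0.64 in media and 5.27 ± 0.45 in supernatant. Array medians over all probe sets lay between 5.00 and 5.19 and no 2 arrays held identical values. The normalization of the deposited values aligns the arrays, so this nearly fixed middle comes from the processing. Levels of the members are relative to it. Ranked among all 19938 genes by probe set level, the median member stood at the 90.5 percentile in C57epi.1 media, at 81.9 in Bm12.4 media, at 61.3 in macrophages in media and at 47.5 in macrophages in supernatant. These ranks compare probe sets and not molecules per cell, because no level per length can be had from the arrays. Without a detection p-value, low levels and background are not separable.

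**Figure D1:**
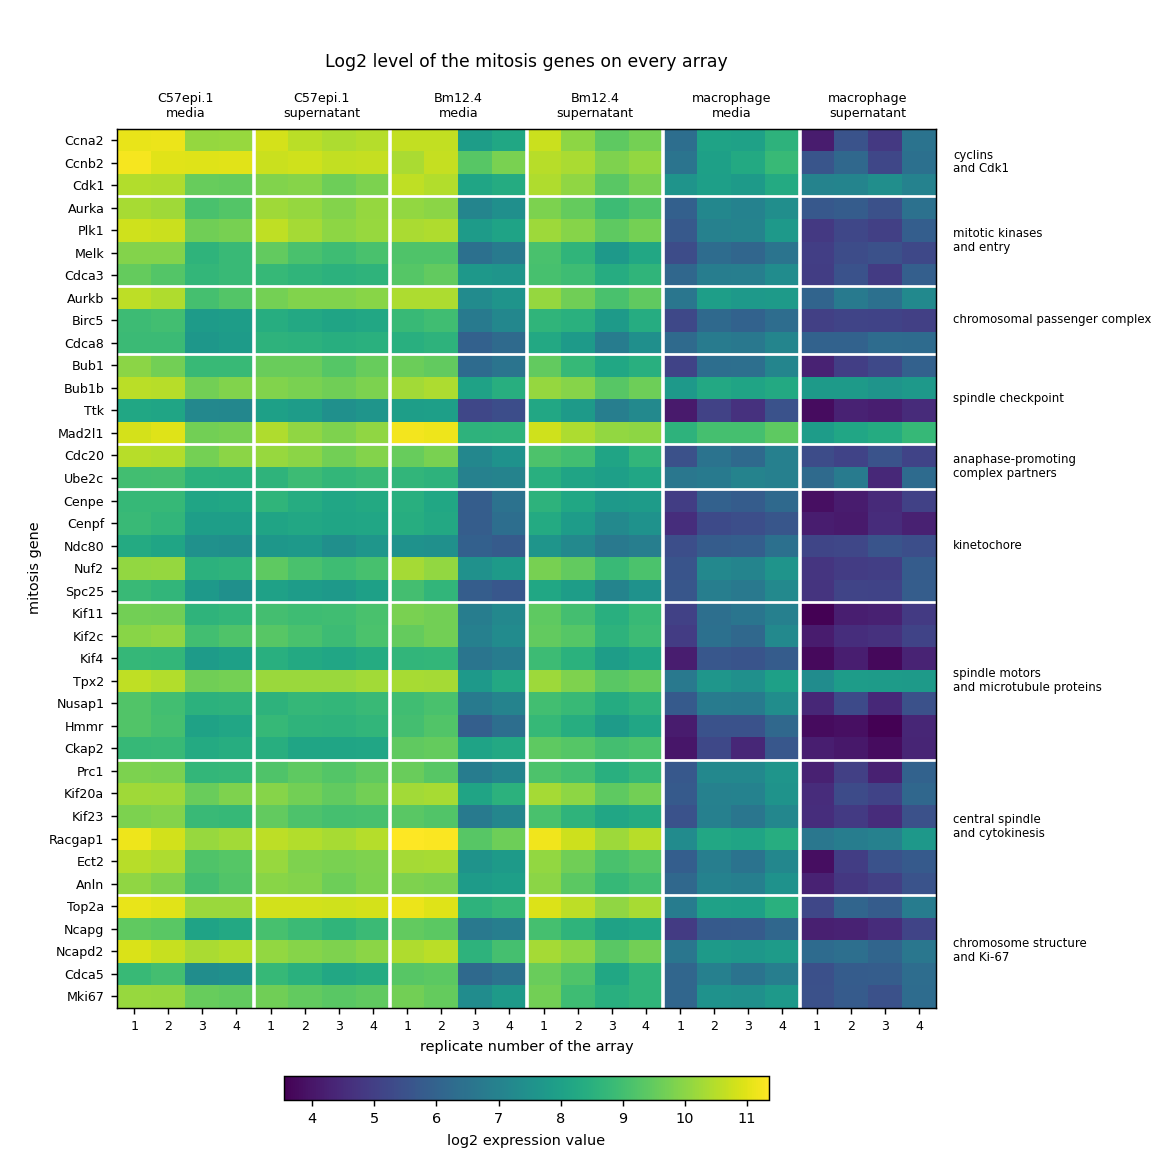
Log2 expression value of the 39 measured mitosis genes (rows, grouped by role) on each of the 24 arrays (columns, by group and replicate number). The line arrays are bright, with replicates 3 and 4 of Bm12.4 in media darker at array medians of 7.10 and 7.42, and the macrophage arrays in supernatant are darkest, with array medians from 4.84 to 5.89.

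Macrophage markers went with the labels, and epithelial markers went with those of the lines only in part. The array mean of 6 macrophage markers (Ptprc, Csf1r, Itgam, Cd68, Adgre1 and Lyz2) was between 11.98 and 12.22 in macrophages and between 4.24 and 4.78 in the lines. Of 6 dendritic cell markers, Itgax (12.16 in media and 11.99 in supernatant), Clec9a (7.92 and 7.14) and Ccr7 (7.76 and 9.15) were also higher in macrophages. In the lines these genes lay between 3.02 and 5.05. Flt3, Zbtb46 and Xcr1 lay between 3.83 and 5.63 in macrophages and between 3.82 and 6.16 in the lines. Of 6 epithelial markers, Krt19, a keratin of simple epithelia, had group means of 11.31 to 12.12 in both lines, Krt8 stood at 9.03 and 9.25 in C57epi.1 but at 5.67 and 5.78 in Bm12.4 (5.38 and 5.62 in macrophages), and Epcam, Cdh1, Krt18 and Krt7 lay between 3.67 and 5.8 in the lines. Cdh1 was higher in macrophages, at 6.65 in media and 7.25 in supernatant. Of 6 stromal markers, Col1a1, Col3a1 and Dcn lay between 10.5 and 13.45 in both lines. Col1a2 stood at 11.84 and 12.43 in C57epi.1 but at 5.68 and 6.01 in Bm12.4, below macrophages (7.07 and 7.71). Pdgfra lay between 6.26 and 8.5 and Thy1 between 4.93 and 5.22 in the lines. Cd34, of the myeloid progenitor list, lay between 10.26 and 12.59 in the lines and at 5.1 and 5.59 in macrophages. The other markers of that list lay between 3.68 and 5.11 in the lines. Array means of 5 T cell markers were between 3.78 and 4.23 on all arrays, and none of the 5 T cell or 6 myeloid progenitor markers was called in any supernatant response (limma, adjusted p under 0.05; 1 of each list at an unadjusted p under 0.05, in macrophages). With supernatant, C57epi.1 had lower Pdgfra (by 2.18), Col3a1 (1.04), Col1a1 (0.62), Col1a2 (0.59), Krt7 (0.69) and Lyz2 (0.86) and higher Krt18 (0.52), all called, while no marker was called in Bm12.4 (2 at an unadjusted p under 0.05).

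In the untreated arrays of each line, mitosis genes lay at 2 levels. In media, replicates 1 and 2 lay above replicates 3 and 4 for 38 of 39 members in C57epi.1, where 23.7% of all genes did so, and for 39 of 39 in Bm12.4, where 24.1% did. The median member was 0.92 higher in replicates 1 and 2 of C57epi.1 (1.89-fold; range 0.13 to 1.53) and 2.38 higher in those of Bm12.4 (5.21-fold; range 0.96 to 3.12). Differences are on the log2 scale throughout. This split was known from earlier results of these data and is described without a test, and the labels do not say what sets the replicates apart. The DNA replication genes moved with it: their array medians in Bm12.4 media were 9.43 and 9.58 in replicates 1 and 2 against 7.42 and 7.50 in replicates 3 and 4.

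The entry genes show the split. Cdk1 (probe set 10369815), the kinase that drives entry into mitosis, was at 10.45, 10.43, 9.54 and 9.51 in replicates 1 to 4 of C57epi.1 media and at 10.60, 10.47, 8.14 and 8.34 in Bm12.4 media. In supernatant Cdk1 was at 9.87, 9.94, 9.62 and 9.81 in C57epi.1 and at 10.44, 10.07, 9.36 and 9.77 in Bm12.4. The treated arrays of each line thus lay inside the span of its media arrays. Plk1 (probe set 10557156), the Polo-like kinase of spindle formation and mitotic exit, was at 10.78, 10.74, 9.66 and 9.77 in C57epi.1 media, and at 10.38, 10.43, 7.82 and 8.09 in Bm12.4 media. With supernatant its values were 10.61, 10.31, 10.03 and 10.16 in C57epi.1 and 10.20, 9.95, 9.41 and 9.72 in Bm12.4. Both lines had lower Plk1 in media replicates 3 and 4 than on any of their supernatant arrays. Cyclin genes differed from each other here: Ccna2 (cyclin A2) parted by 2.60 in Bm12.4 media and Ccnb2 (cyclin B2) by 0.96, which was the smallest split of the 39.

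The split was also present in the chromosomal passenger and checkpoint genes. Aurkb (probe set 10377405), the kinase of the chromosomal passenger complex that corrects wrong spindle attachments, was at 10.59, 10.44, 9.06 and 9.27 in C57epi.1 media and at 10.39, 10.39, 7.32 and 7.60 in Bm12.4 media. Its supernatant values were 9.73, 9.88, 9.88 and 9.96 in C57epi.1 and 10.11, 9.67, 9.12 and 9.44 in Bm12.4. In both lines the supernatant values fell between those of the media pairs. Bub1b (probe set 10474769), which encodes the checkpoint protein BubR1, was at 10.56, 10.51, 9.71 and 9.88 in C57epi.1 media and at 10.27, 10.41, 8.06 and 8.44 in Bm12.4 media. With supernatant Bub1b was at 9.89, 9.79, 9.66 and 9.83 in C57epi.1 and at 10.12, 9.93, 9.32 and 9.63 in Bm12.4. Bub1, a kinase of the same checkpoint, had the widest split of all members in Bm12.4 media (3.12), followed by Spc25 of the Ndc80 complex (3.10) and Cdca5, the cohesin protector sororin (3.02).

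Cdc20 (probe set 10515744), which starts anaphase, had lower means in Bm12.4 than in C57epi.1. Its values were 10.52, 10.45, 9.74 and 10.01 in C57epi.1 media and 9.55, 9.79, 7.15 and 7.52 in Bm12.4 media. In supernatant they were 10.14, 9.99, 9.71 and 9.91 in C57epi.1 and 9.18, 8.98, 8.12 and 8.69 in Bm12.4, with no overlap between the lines. Ndc80 (probe set 10452709), which holds the microtubule end at the kinetochore, was at 8.32, 8.15, 7.49 and 7.44 in C57epi.1 media and at 7.54, 7.48, 5.95 and 5.79 in Bm12.4 media. Its supernatant arrays read 7.67, 7.74, 7.43 and 7.64 in C57epi.1 and 7.62, 7.23, 6.70 and 6.90 in Bm12.4.

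The motor Kif11 (probe set 10462796), which pushes the spindle poles apart, was at 9.68, 9.66, 8.62 and 8.73 in C57epi.1 media and at 9.78, 9.69, 6.86 and 7.19 in Bm12.4 media. In supernatant Kif11 was at 9.03, 8.94, 8.96 and 9.10 in C57epi.1 and at 9.41, 9.01, 8.47 and 8.81 in Bm12.4. Anln (probe set 10591781), anillin, a scaffold of the cleavage furrow, was at 10.06, 9.86, 9.03 and 9.25 in C57epi.1 media and at 9.85, 9.78, 7.83 and 7.96 in Bm12.4 media. Anln in supernatant was at 9.96, 9.90, 9.64 and 9.81 in C57epi.1 and at 10.01, 9.38, 8.77 and 9.0 in Bm12.4. Like Kif11, it was closest together on the C57epi.1 supernatant arrays.

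Top2a (probe set 10390707), the topoisomerase that untangles sister chromatids, was at 11.10, 11.02, 10.18 and 10.17 in C57epi.1 media and at 11.14, 10.98, 8.59 and 8.77 in Bm12.4 media. Its C57epi.1 supernatant arrays lay close together at 10.84, 10.82, 10.78 and 10.87, and those of Bm12.4 were at 10.95, 10.59, 10.07 and 10.34. Mki67 (probe set 10568714), which encodes Ki-67, which coats mitotic chromosomes and is the usual stain for cycling cells, was at 10.14, 10.12, 9.55 and 9.48 in C57epi.1 media and at 9.70, 9.51, 7.33 and 7.80 in Bm12.4 media. In supernatant Mki67 was at 9.67, 9.48, 9.36 and 9.46 in C57epi.1 and at 9.70, 8.93, 8.48 and 8.67 in Bm12.4.

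The pairs also differed in supernatant, but less. Replicates 1 and 2 lay above 3 and 4 for 38 of 39 members in Bm12.4 supernatant (median 0.62, range 0.23 to 0.98; 23.9% of all genes) and for 20 of 39 in C57epi.1 supernatant (median 0.16; 20.5%). The macrophages had no such order. In media, no member had replicates 1 and 2 above and 12 had them below (median -0.62; 15.1% of all genes), and replicate 1 was the lowest array for 39 of 39 members while replicate 4 was the highest for 36. In macrophage supernatant 1 member had replicates 1 and 2 above and 14 had them below (median -0.30; 21.8%), with replicate 4 the highest for 29.

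**Figure D2:**
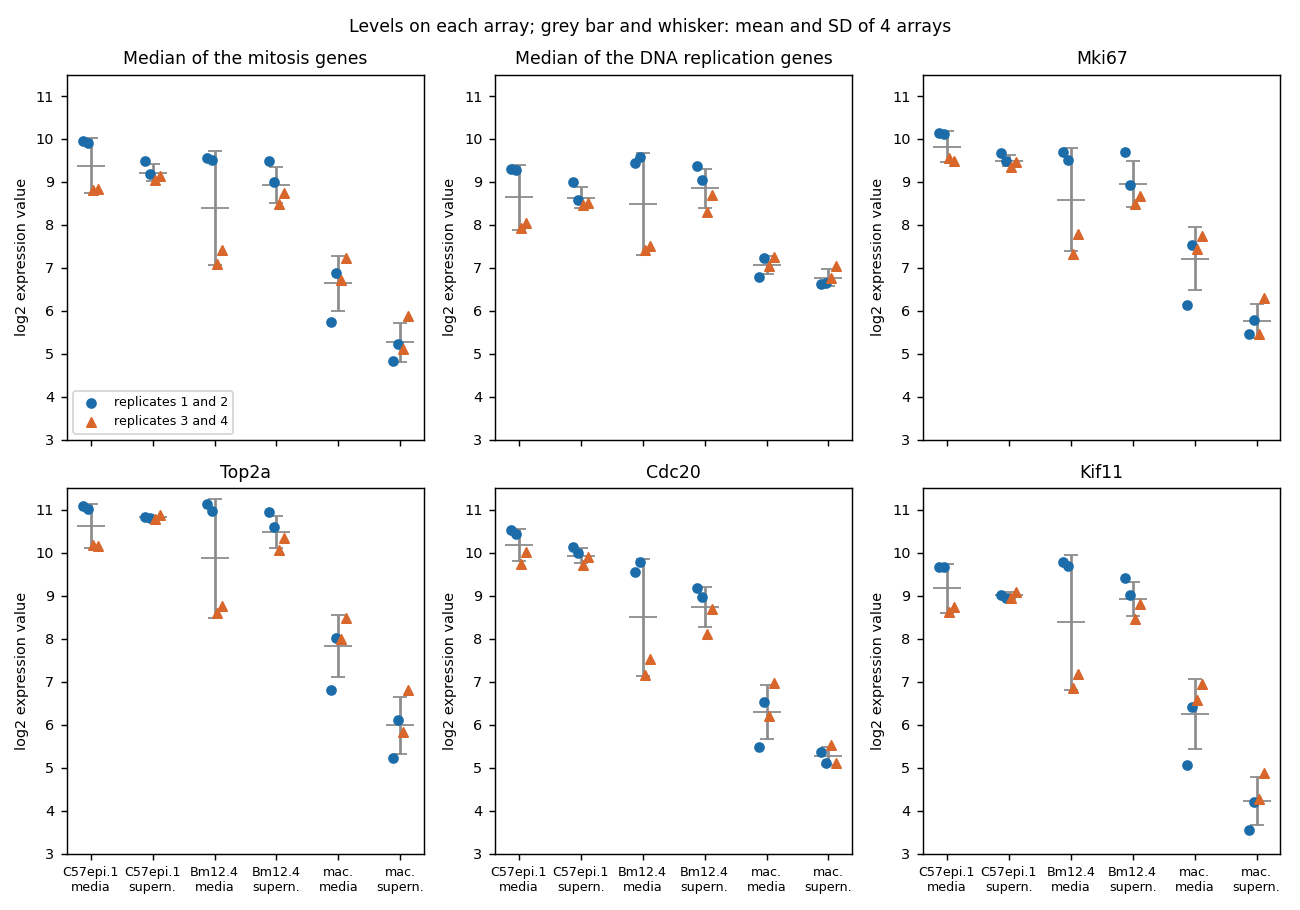
Log2 expression values on each array by group, for the median of the 39 mitosis genes, the median of 32 DNA replication genes, and Mki67, Top2a, Cdc20 and Kif11; circles are replicates 1 and 2, triangles replicates 3 and 4, and the grey bar and whisker are the mean and SD of 4 arrays. The circles and triangles of Bm12.4 media lie far apart, with Top2a at 11.14 and 10.98 against 8.59 and 8.77, and the macrophage groups lie below the line groups, except that replicate 3 of Bm12.4 media lies inside the range of macrophage media for the mitosis gene median, Mki67 and Kif11.

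In macrophages, the supernatant lowered mitosis genes across most of their roles. Of the 39 members, 17 fell and 0 rose (limma with Benjamini-Hochberg adjustment over all genes, adjusted p under 0.05), where 6.31% of all genes fell and 6.13% rose. The median difference, supernatant minus media, was -1.12 over the members and -0.02 over all genes. The estimate was below 0 for 38 members. The largest falls were in Ccna2, Ccnb2 and Prc1. Lower and not overlapping were 11 of 39 members, against 11.3% of all genes. Among cell type markers in the same comparison, the dendritic cell marker Ccr7 rose by 1.40 (adjusted p 0.00132), Clec9a fell by 0.77 (adjusted p 0.000611), and Col1a2, Col1a1 and the macrophage marker Adgre1 fell by 0.63, 0.58 and 0.41, with the other 4 of 6 dendritic, 4 of 6 stromal and 5 of 6 macrophage markers not called. Their part in the fall of mitosis genes was not tested.

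Cyclins fell most. Ccna2 was at 6.38, 8.07, 8.0 and 8.59 in macrophage media and at 4.14, 5.54, 4.84 and 6.51 in supernatant. It fell by 2.50 (SE 0.584, 5.67-fold, adjusted p 0.00461), although the highest supernatant array lay above the lowest media array. Ccnb2 was at 6.56, 7.97, 8.28 and 8.82 in media and at 5.59, 6.17, 5.21 and 6.42 in supernatant, with no overlap, and fell by 2.06 (SE 0.347, 4.17-fold, adjusted p 0.000159). Their partner Cdk1 was at 7.59, 7.94, 7.80 and 8.32 in media and at 7.05, 7.08, 7.39 and 7.01 in supernatant. Its arrays did not overlap either, but the difference of -0.78 (SE 0.411) did not pass (adjusted p 0.287).

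Among the genes of the central spindle and of cytokinesis, 4 of 6 fell, with a median of -1.64. Prc1, which bundles the microtubules between the separating chromosomes, was at 5.68, 7.18, 7.20 and 7.62 in media and at 4.25, 5.02, 4.27 and 5.99 in supernatant. It fell by 2.04 (SE 0.526, 4.11-fold, adjusted p 0.0102), with replicate 4 in supernatant above replicate 1 in media. Anln was at 6.17, 7.01, 6.91 and 7.53 in media and at 4.28, 4.80, 5.03 and 5.55 in supernatant, and fell by 1.99 (SE 0.409, 3.97-fold, adjusted p 0.00137) with no overlap. The motors Kif23 (-1.69) and Kif20a (-1.56), which bring signalling proteins to the midzone, fell too. Ect2, the exchange factor that activates RhoA at the furrow, was lower by 1.59 with no overlap and just missed the threshold (adjusted p 0.0551).

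Of the spindle motors and microtubule proteins, 4 of 7 fell. Kif11 was at 5.06, 6.41, 6.57 and 6.94 in media and at 3.54, 4.21, 4.27 and 4.88 in supernatant, all of the latter lower, and fell by 2.02 (SE 0.524, 4.06-fold, adjusted p 0.0107). Nusap1, a spindle-binding protein, fell by 1.75, Kif2c, a motor that takes microtubules apart at the kinetochore, by 1.58, and the chromokinesin Kif4 by 1.32. Hmmr, a spindle pole protein, had a difference of -1.45 that did not pass (adjusted p 0.103). Tpx2, the activator of Aurora A, was the 1 member with an estimate above 0. It was at 6.71, 7.64, 7.45 and 7.97 in media and at 7.34, 7.87, 7.82 and 7.79 in supernatant, a difference of 0.26 (SE 0.425) that did not pass (adjusted p 0.835).

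The chromosome genes gave 3 falls of 5. Top2a was at 6.82, 8.03, 7.99 and 8.49 in media and at 5.22, 6.10, 5.82 and 6.81 in supernatant, just short of touching, and fell by 1.84 (SE 0.477, 3.59-fold, adjusted p 0.0103). Mki67 was at 6.13, 7.53, 7.45 and 7.74 in media and at 5.47, 5.80, 5.47 and 6.30 in supernatant, and fell by 1.45 (SE 0.423, 2.74-fold, adjusted p 0.0239). Ncapd2, a subunit of condensin, fell by 1.12. Of the kinases and entry genes 2 of 4 fell: Plk1 went from 5.73, 6.97, 7.04 and 7.78 in media to 4.84, 5.21, 5.02 and 5.89 in supernatant, and fell by 1.64 (SE 0.494, adjusted p 0.0295), with replicate 4 in supernatant above replicate 1 in media. Cdca3, a factor of mitotic entry, fell by 1.49. In the kinetochore group 2 of 5 fell, Nuf2 of the Ndc80 complex by 1.74 and the motor Cenpe by 1.36.

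The passenger complex, the spindle checkpoint and the partners of the anaphase-promoting complex had mostly smaller differences, with 0 of 3, 0 of 4 and 0 of 2 called. At an unadjusted p under 0.05 the counts were 1, 0 and 2. With the macrophage arrays alone 38 of all 39 members were under that level (limma), so the contrast between roles depends on the error used. Bub1 of the checkpoint was at 5.1, 6.37, 6.41 and 7.11 in media and at 4.29, 4.99, 5.26 and 5.96 in supernatant, and was not called. Aurkb was at 6.62, 7.92, 7.74 and 7.80 in media and at 6.05, 6.75, 6.44 and 7.25 in supernatant (difference -0.90, SE 0.548, adjusted p 0.389). Bub1b was at 7.75, 8.26, 8.12 and 8.28 in media and at 7.80, 7.80, 7.59 and 7.74 in supernatant (difference -0.37, SE 0.364, adjusted p 0.671). For both Aurkb and Bub1b the media and supernatant arrays overlapped. Cdc20 was at 5.49, 6.53, 6.2 and 6.96 in media and at 5.37, 5.11, 5.54 and 5.10 in supernatant, so that 1 media array fell inside the supernatant range (difference -1.01, SE 0.432, adjusted p 0.155). Ndc80 was at 5.42, 5.83, 5.87 and 6.42 in media and at 5.17, 5.22, 5.58 and 5.42 in supernatant (difference -0.54, SE 0.325, adjusted p 0.381).

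The macrophage count depends on which arrays set the error. All 6 groups share 1 error in the model, and the SD of the median member was 1.38 in Bm12.4 media against 0.60 and 0.42 in macrophage media and supernatant. With the macrophage arrays alone, 31 members fell (9.79% of all genes). Without replicate 1 of macrophage supernatant, or without replicate 4 of macrophage media, 8 fell, and without replicate 1 of macrophage media 20 fell. Inside replicates 1 and 2, 27 fell (median -1.03; 8.32% of all genes fell), and inside replicates 3 and 4, 33 fell (median -1.26; 6.14%), with 0 rises in both (6.12% and 6.61% of all genes rose).

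In the lines, estimates of the response to supernatant were mixed in sign in C57epi.1 and all above 0 in Bm12.4, with none called. Over all 4 replicates 0 of 39 members were called in C57epi.1 and 0 in Bm12.4 (limma; 0 at an unadjusted p under 0.05 in both), where 19.2% and 7.25% of all genes were. The median difference was -0.13 in C57epi.1 (range -0.65 to 0.37), with 16 estimates above 0 and 23 below. In Bm12.4 it was 0.52 (range 0.16 to 1.05), with 39 of 39 above 0. Standard errors ran from 0.307 to 0.599 for C57epi.1 in this model, whose error all groups share. Changes of that size were not detectable in it, and changes larger than a standard error could go uncalled too. With the C57epi.1 arrays alone the standard errors ran from 0.0884 to 0.371. In that fit 2 members fell, by 1.28- and 1.57-fold, where 1663 of 19938 genes fell. Ccnb2 and Ncapd2 had supernatant arrays all below the media arrays in C57epi.1, 2 of 39 members against 11.4% of all genes.

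Inside the pairs of replicates the values had other signs. The pairs were chosen with the split of the media arrays known, so differences from those arrays restate the split in part, and their counts past the threshold are a description and no test of a response. In replicates 3 and 4 of Bm12.4, whose media arrays were low, 36 of 39 members were past it on the higher side (7.68% of all genes), with a median of 1.34. Supernatant minus media was 2.08 (SE 0.229) for Cdca5, 1.93 (SE 0.329) for Bub1 and 1.86 (SE 0.319) for Hmmr. Ccnb2, Ckap2 and Ncapd2 were the 3 not past it. In replicates 1 and 2 of Bm12.4, whose media arrays were high, 1 of 39 was past it on the lower side (5.11% of all genes), and the median was -0.33. It was the checkpoint protein Mad2l1, with -0.61 (SE 0.183).

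C57epi.1 gave the same order of pairs with smaller differences. In replicates 3 and 4, 4 members were past the threshold on the higher side (13.4% of all genes): Cdca5 (0.88), Aurka (Aurora A, the kinase of the spindle poles, 0.84), Cdca8 (borealin, of the passenger complex, 0.71) and the condensin subunit Ncapg (0.61). In replicates 1 and 2, 5 were on the lower side (7.46% of all genes): Ncapd2 (-0.80), Bub1b (-0.70), Mad2l1 (-0.68), Cdk1 (-0.54) and Ndc80 (-0.53). The share of members called in C57epi.1 replicates 3 and 4 was below that of all genes. Whether the response differs between the pairs was not tested.

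**Figure D3:**
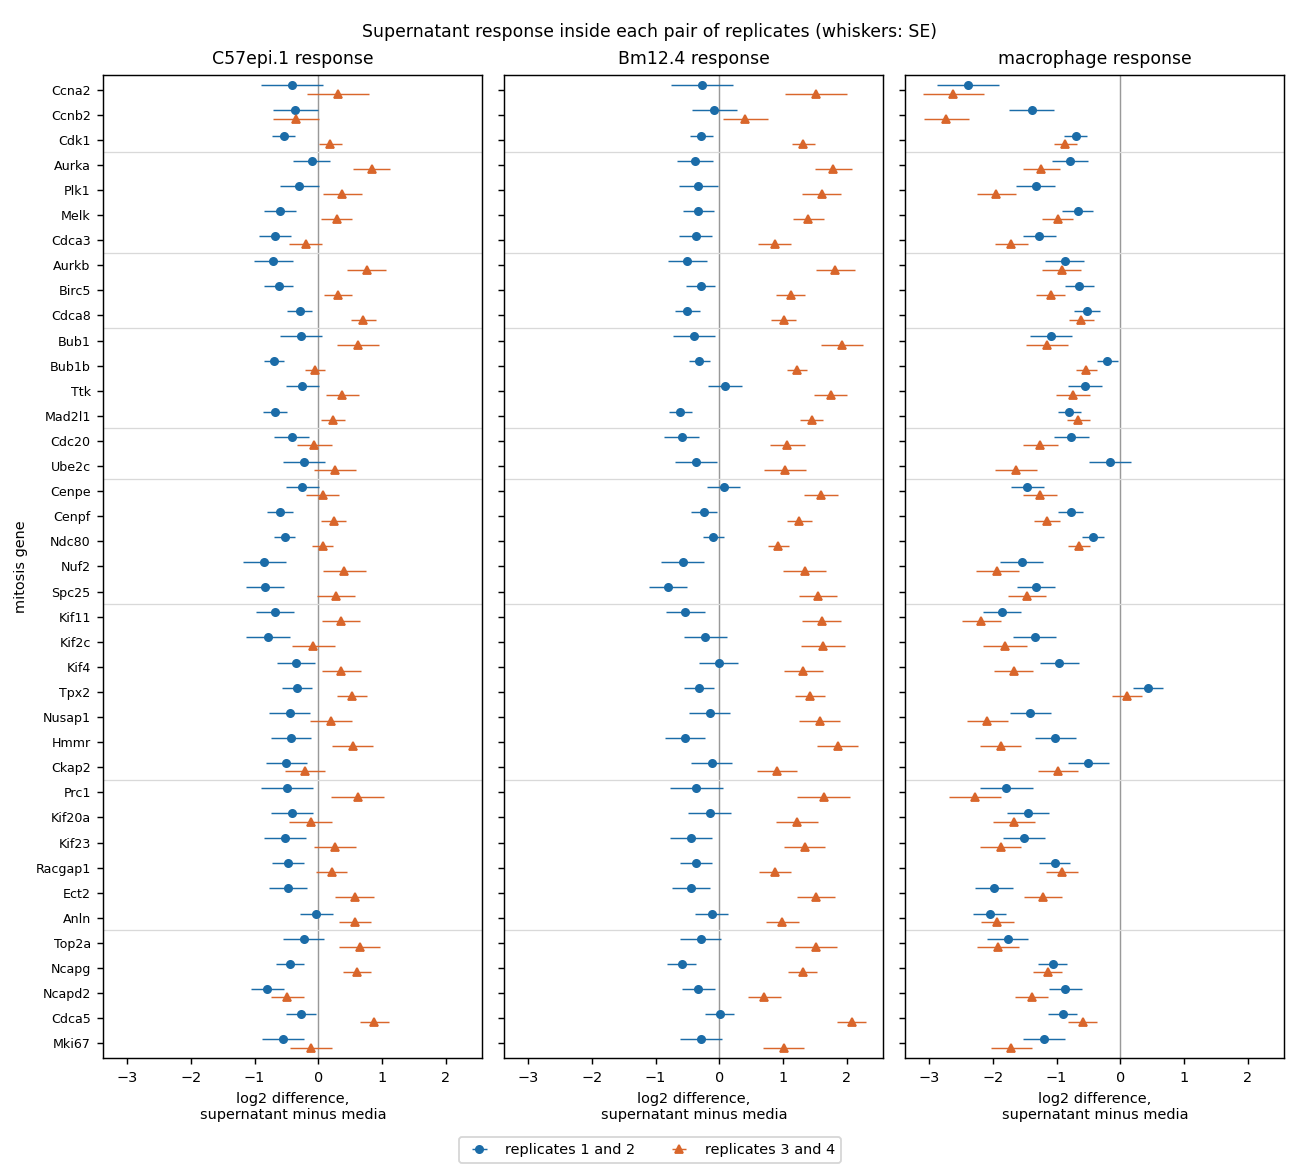
Log2 difference, supernatant minus media, of each of the 39 mitosis genes (rows) in C57epi.1, Bm12.4 and macrophages; circles are from replicates 1 and 2, triangles from replicates 3 and 4, and whiskers are 1 SE. In Bm12.4 the triangles lie to the right, with a median of 1.34, and the circles near -0.33, while in macrophages both symbols lie below 0 for all members but Tpx2.

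The response of macrophages differed from that of the lines for part of the list. The interaction (mean response of both lines minus that of macrophages) was above 0 and called for 11 of 39 members, where 4.27% of all genes were called in that direction, and below 0 and called for 0 (3.81%). These were Ccna2 (2.79, SE 0.716, adjusted p 0.015), Prc1 (2.39, SE 0.644, adjusted p 0.0211), Anln (2.35, SE 0.501, adjusted p 0.00343), Top2a (2.26, SE 0.584, adjusted p 0.0159), Kif11 (2.21, SE 0.642, adjusted p 0.0339), Nusap1, Plk1, Ccnb2, Cenpe, Kif4 and Cdca3. As a description, the count was 6 inside replicates 1 and 2 (6.89% of all genes) and 39 inside replicates 3 and 4 (7.69%). It was 3 without replicate 1 of macrophage supernatant and 7 with every array centred on its median. Mki67 had a difference of 1.47 that did not pass (adjusted p 0.0924), and Tpx2 one of 0.07 (adjusted p 0.969).

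Between the lines, no member differed in response over all replicates (0 called by limma, 0 at an unadjusted p under 0.05; 4.03% of all genes). The median of C57epi.1 minus Bm12.4 was -0.65. Inside replicates 3 and 4, as a description, 11 members were past the threshold with the larger value in Bm12.4 (5.16% of all genes), led by Bub1b (-1.27), Mad2l1 (-1.21) and Cdk1 (-1.13). Inside replicates 1 and 2 the count was 0.

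In media the lines held more mitotic transcript than macrophages in nearly every role. The mean of both lines was higher for 38 of 39 members (limma, adjusted p under 0.05; 24.7% of all genes were higher and 47.1% differed either way), with a median difference of 2.30, and 0 were lower (22.4% of all genes). The arrays of the lines and of macrophages did not overlap for 15 of 39 members, against 13.5% of all genes. This comparison uses the same media arrays as the responses above and is no separate evidence for them.

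The largest differences in media were in Ckap2, Cdc20 and Plk1. Ckap2, a microtubule-stabilising spindle protein, was at 8.77, 8.82, 8.32 and 8.4 in C57epi.1, at 9.46, 9.5, 8.09 and 8.26 in Bm12.4 and at 4.00, 5.24, 4.41 and 5.67 in macrophages. The groups were far apart, with a difference of 3.87 (SE 0.266, 14.6-fold, adjusted p 1.42e-11), and it remained 3.23 inside replicates 3 and 4. Cdc20 was 3.05 higher (SE 0.374, 8.26-fold, adjusted p 2.85e-07) and Plk1 2.83 higher (SE 0.428, 7.10-fold, adjusted p 5.92e-06). Neither gene overlapped between lines and macrophages. Among the other core genes, Kif11 was 2.53 higher, Top2a 2.41, Anln 2.30, Mki67 1.99, Aurkb 1.86, Cdk1 1.77, Bub1b 1.63 and Ndc80 1.39, all called.

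By role, the median difference in media ran from 1.86 for the passenger complex and 1.96 for the checkpoint to 2.70 for the spindle motors and microtubule proteins. The smallest differences were Mad2l1 (1.09, adjusted p 0.0308), Cdca8 (1.12, adjusted p 0.0215) and Spc25 (1.15, SE 0.494, adjusted p 0.0621), which was the 1 member not called. Spc25 was at 8.84, 8.70, 7.73 and 7.47 in C57epi.1, at 9.02, 8.70, 5.84 and 5.67 in Bm12.4 and at 5.62, 6.87, 6.69 and 7.22 in macrophages. Replicates 3 and 4 of Bm12.4 thus lay below 3 of the 4 macrophage arrays. Inside replicates 3 and 4, 31 members were higher (24.2% of all genes), and Spc25 (-0.28), Mad2l1 (-0.05) and Cdca8 (0.05) were among the 8 not called. Inside replicates 1 and 2 all 39 were higher, with a median of 3.45 (24.7% of all genes). The counts inside pairs are a description, since the pairs were chosen with the split of the media arrays known.

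In supernatant the distance was wider and held for all 39 members. The mean of the lines was higher for 39 of 39 (24.3% of all genes), with a median difference of 3.85, and no array of either line reached down to a macrophage array for any of the 39, where 16.3% of all genes lay so. Ccna2 led with 5.02 (SE 0.506, 32.4-fold, adjusted p 1.19e-08): it was at 10.87, 10.54, 10.39 and 10.50 in C57epi.1 and at 10.73, 10.04, 9.42 and 9.72 in Bm12.4, against at most 6.51 in macrophages. Plk1 (4.81, SE 0.428, 28.0-fold) and Kif11 (4.74, SE 0.454, 26.7-fold) came next. Cdca8 (1.91) and Mad2l1 (1.92) were again the smallest. The count was 39 inside both pairs of replicates (25.4% and 23.9% of all genes higher), with medians of 4.16 and 3.38. Macrophage levels were low here, and how far background limits these folds was not tested.

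**Figure D4:**
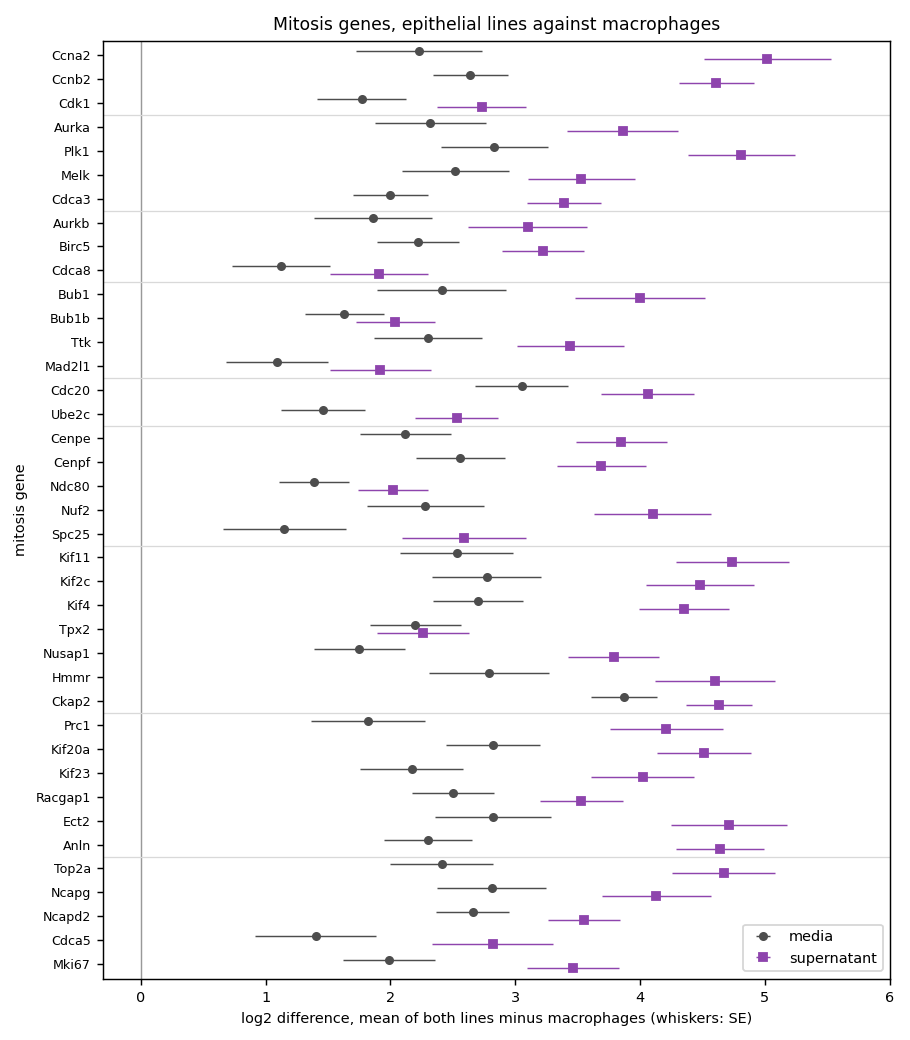
Log2 difference, mean of both lines minus macrophages, for each of the 39 mitosis genes in media (circles) and in supernatant (squares), with whiskers of 1 SE. All points lie to the right of 0, the squares with a median of 3.85 and the circles with one of 2.30, and Tpx2 has both at nearly the same place (2.20 and 2.26).

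The lines differed from each other in fewer members. In media 7 of 39 were higher in C57epi.1 and 0 in Bm12.4 (12% and 12.5% of all genes), with a median difference of 0.93. Cdc20 (1.68, SE 0.432, 3.20-fold, adjusted p 0.00523), Melk (1.42, SE 0.493, adjusted p 0.038), a kinase of dividing cells, and Mki67 (1.24, SE 0.423, adjusted p 0.0353) led, followed by Cenpe, Ndc80, Ccnb2 and Ncapd2. Of these, Ccnb2 was the 1 gene whose arrays did not overlap, a description given without the share of all genes. Same-numbered media arrays of the lines deviated together, which the split shared by both lines can give without any pairing by number. With the replicate number as a block the count was 11, all higher in C57epi.1. It was 20, also all higher, with the block and the media arrays of the lines alone, a fit chosen after seeing the data. Both counts are given without the share of all genes. With the media arrays of the lines alone and no block the count was 1, where 1468 of 19938 genes were called higher. The count changed with the Bm12.4 media arrays used. It was 2 inside replicates 1 and 2 (Ndc80 and Cdc20, 9.81% of all genes) and 38 inside replicates 3 and 4 (all but Ckap2, 16% of all genes). The pairs were chosen with the split of these media arrays known, so both counts restate it in part and are a description. The count was 1 without replicate 3 or without replicate 4 of Bm12.4 media and 21 without replicate 1 or without replicate 2.

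With supernatant, Cdc20 was higher in C57epi.1 by 1.20 (SE 0.432, 2.29-fold, adjusted p 0.0397) and Ckap2 was higher in Bm12.4, at -0.99 (SE 0.307, 1.99-fold, adjusted p 0.0153). These were the 2 calls among 39 members, where 14.3% of all genes were higher and 15.6% lower. Ckap2 was at 8.44, 8.15, 8.15 and 8.16 in C57epi.1 and at 9.42, 9.29, 9.02 and 9.15 in Bm12.4, with no overlap. Inside replicates 1 and 2 and inside 3 and 4, Cdc20 was at 0.98 and 1.41 and Ckap2 at -1.06 and -0.93. With the supernatant arrays of the lines alone the count was 12 (11 higher in C57epi.1), where 6899 of 19938 genes were called, 3376 higher. It was 4 inside replicates 1 and 2, 11 inside replicates 3 and 4 and 1 to 2 on leaving out 1 array. These last counts are a description, given without the share of all genes. Ckap2 was the only member called lower in C57epi.1 over all replicates. Every measured member was called in at least 1 of the 9 comparisons, since all were in the last comparison with macrophages.

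Other genes of the pathway were read from lists of the same origin. Of 45 other mitotic genes, 37 were higher in the lines than in macrophages in media (median 1.95; 24.7% of all genes) and 42 in supernatant (median 3.0; 24.3%), led by Nek2 (4.11) and Dlgap5 (4.08). In the macrophage response 1 fell and 1 rose (median -0.80; 6.31% and 6.13% of all genes): Ckap2l, a spindle protein, by 1.31, and Pttg1 (securin, which guards the cohesin-cutting protease) by 0.42. Pttg1 was also the 1 called gene of that list in each line, rising by 0.41 in C57epi.1 and by 0.46 in Bm12.4. Of all genes, 19.2% and 7.25% were called in these responses, so the list was called less often than genes at large. With the macrophage arrays alone 29 fell (9.79% of all genes), and inside the pairs 26 and 27 did (8.32% and 6.14%). In Bm12.4 replicates 3 and 4, 40 were past the threshold on the higher side (7.68%).

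DNA replication genes, which act in S phase, had the split of the lines too. Of 32, 25 were past the threshold on the higher side in Bm12.4 replicates 3 and 4 (median 1.02; 7.68% of all genes) and 24 in C57epi.1 replicates 3 and 4 (median 0.95; 13.4%), while 10 were on the lower side in C57epi.1 replicates 1 and 2 (7.46%). In macrophages 0 were called over all replicates (limma; 0 at an unadjusted p under 0.05), 27 of 32 estimates were below 0, and the median was -0.26 beside -1.12 for the mitosis genes. With the macrophage arrays alone 6 fell (9.79% of all genes) and 2 rose (1549 of 19938 genes). Inside replicates 1 and 2, 6 fell (8.32% of all genes), and inside 3 and 4, 2 fell (6.14%). The lines were above macrophages for 23 in media (24.7% of all genes), led by Prim1 (3.09) and Mcm7 (2.55). A test of the mitosis list against the replication list was not run.

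Among regulators of mitotic transcription, more genes were higher than lower in the lines against macrophages. Foxm1, a factor of late cell cycle genes, was 2.54 higher than in macrophages in media (adjusted p 1.84e-06) and 3.98 in supernatant (adjusted p 1.42e-09), and Mybl2 (B-Myb) 2.06 and 2.50. Rb1, the retinoblastoma protein, was lower in the lines by 2.91 in media. In that list of 21, 9 were higher and 4 lower in media (24.7% and 22.4% of all genes). The lower count is near the share of all genes and so no result about the list. With supernatant, 1 rose and 3 fell in C57epi.1 (Nfyb by 0.76, Tfdp2 by -1.10, Rbl2 by -0.81), a share near the 19.2% of all genes and so no result about the list. In macrophages E2f1 rose (0.41, limma, adjusted p 0.0261) and 1 fell (6.13% and 6.31% of all genes), which is likewise no result about the list.

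Among 18 Cdk inhibitors and entry control genes, 3 rose and 3 fell in C57epi.1 (19.2% of all genes called), with the largest changes in stress-induced Gadd45 genes. Gadd45a rose by 2.36 (adjusted p 1.1e-06) and Gadd45g by 1.77 (adjusted p 7.96e-06) with supernatant, and Ccng2 fell by 1.38. In Bm12.4 1 gene rose, Gadd45g by 1.43 (limma, adjusted p 0.000221), where 7.25% of all genes were called, so the count is no result about the list. The Gadd45a response differed between the lines by 2.60 (limma, adjusted p 0.000276). In macrophages the inhibitor Cdkn2c fell by 1.40 and the phosphatase Cdc25b, an activator of Cdk1, by 0.96, while Gadd45b (0.71) and Cdkn2d (0.69) rose. Of 15 genes for subunits and regulators of the anaphase-promoting complex, 7 fell in C57epi.1 (10.4% of all genes), Anapc2 by 0.97 and Anapc13 by 0.62. In macrophages 3 fell (6.31%), and in Bm12.4 0 were called (limma, 0 at an unadjusted p under 0.05, 7.25% of all genes called).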

How the data were processed

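The authors' deposited table holds log2 expression values, 1 per probe set and array, for 28853 probe sets and 24 arrays. Per the submitters' processing notes, GCOS, Partek 6.2 and RMA were used; their order, the other versions and a genome build are not named there, in the labels or in the table. RMA aligns the distributions of the arrays, which hides a change shared by all genes. The table has no detection p-value. Each column was matched to its sample by label.

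Gene symbols came from the platform annotation, checked against RefSeq GRCm38.p6 names. Of the probe sets, 21789 had 1 symbol and were used, 1621 had several and 5443 had none. The highest-mean probe set stood for each of 19938 genes. One model in limma 3.58.1 (R 4.3.3, lmFit and eBayes, no filter on dim genes) gave each group a mean over all 24 arrays, with 18 residual and 3.62 prior degrees of freedom. A second model gave each pair of replicates its own mean (12 residual degrees of freedom). P-values are two-sided, adjusted by Benjamini-Hochberg over 19938 genes, with calls made below an adjusted 0.05. Same-numbered arrays deviated together (correlation of deviations from group means over 0.1 for all 4 numbers) in 2 of 15 pairs of groups, C57epi.1 and Bm12.4 media (0.512 to 0.625) and Bm12.4 media and supernatant (0.226 to 0.683); this pairing comes from the values, not the labels. The scripts were tested on simulated data. With 4 arrays per group, the number of arrays limits the precision.

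The members and gene lists, from general knowledge of the cell cycle, and the pairs of replicates were chosen with earlier results of these data known. Named genes are 10 core members, the 3 largest called changes each way per comparison, members against the trend, and the 2 largest called changes each way of other lists where they are described. Alternatives were a replicate block, other normalizations, probe sets and eBayes settings, a dim filter at a log2 level of 5, the compared arrays alone, the replicate pairs and leaving out each array.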

Additional observations from a re-analysis of the deposited data

Results flagged for a closer look

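On the media arrays of macrophages, Aurkb stood at 6.62 in replicate 1 while the other 3 arrays lay between 7.74 and 7.92, a gap of 0.862 of the range. It was the 1 such array in 66 sets of 4 arrays tested (10 core genes and the member median, in 6 groups each), where about 1 in 20 would be marked by chance. Replicate 1 was also the lowest media array for all 39 mitosis genes. The response of the lines minus that of macrophages differed from 0 for Plk1 (1.98, adjusted p 0.0454), Kif11 (2.21, adjusted p 0.0339), Anln (2.35, adjusted p 0.00343) and Top2a (2.26, adjusted p 0.0159) among the core genes.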

How the results depend on the processing

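Centred arrays, quantile normalization, the mean of all probe sets, trend and robust eBayes and the dim filter left each count of called mitosis genes within 1.5 times its value, except the response difference of lines and macrophages, which gave 7 calls with centred arrays in place of 11. With only the arrays compared, 2 fell in C57epi.1, 31 fell in macrophages, 1 differed between the lines in media and 12 in supernatant. Of all 19938 genes, 1663, 1951, 3007 and 6899 were called in the same way. Inside replicates 1 and 2, the calls were 5 in C57epi.1, 1 in Bm12.4, 27 in macrophages, 2 and 4 between the lines in media and supernatant, and 6 for the response difference of lines and macrophages. Inside replicates 3 and 4 they were 4, 36, 33, 38, 11 and 39, and 11 for the response difference between the lines. The counts inside pairs are a description, since the pairs were chosen with the split of the media arrays known. The cause of the difference between the pairs was not tested. Leaving out 1 array gave 8 to 20 calls in macrophages, 35 to 39 for lines against macrophages in media, 39 to 39 in supernatant, 1 to 21 between the lines in media, 1 to 2 in supernatant and 3 to 18 for the response difference of lines and macrophages, and 0 to 0 for the responses of the lines and their difference.

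With the replicate number as a block in the model of all arrays, 11 members differed between the lines in media in place of 7, 18 fell in macrophages and 13 passed for the response difference of lines and macrophages, and the other counts were unchanged. In the 2 comparisons whose same-numbered arrays deviated together, a block with the compared arrays alone was chosen after seeing the data. It gave 20 between the lines in media and 0 in the Bm12.4 response. The counts with a block are given without the share of all genes, so they are a description and no result about the members. Whether arrays pair by number was not tested in any comparison.

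The sign of core gene estimates turned in some settings. In the Bm12.4 response this happened inside replicates 1 and 2 for Cdk1 (-0.28), Cdc20 (-0.59), Plk1 (-0.33), Aurkb (-0.50), Bub1b (-0.31), Ndc80 (-0.09), Kif11 (-0.53), Anln (-0.12), Top2a (-0.29) and Mki67 (-0.29), and on leaving out 1 array for Cdc20 (-0.21 to 0.67) and Mki67 (-0.06 to 0.73). In the C57epi.1 response it happened inside replicates 1 and 2 for Plk1 (-0.30), Aurkb (-0.71), Anln (-0.03) and Top2a (-0.23), inside 3 and 4 for Cdk1 (0.19), Ndc80 (0.07) and Kif11 (0.36), with quantile normalization for Plk1 and Aurkb (both -0.07), and on leaving out 1 array for Plk1 (-0.15 to 0.22), Aurkb (-0.24 to 0.27) and Kif11 (-0.35 to 0.00). Between the lines inside replicates 1 and 2, it did so for Cdk1 (-0.09), Kif11 (-0.07) and Top2a (0.00) in media, and for Aurkb (-0.08), Bub1b (-0.19) and Kif11 (-0.22) in supernatant. There it also turned for Cdk1 inside 3 and 4 (0.15), and on leaving out 1 array for Cdk1 (-0.28 to 0.08), Bub1b (-0.10 to 0.17) and Kif11 (-0.07 to 0.24). Of the response differences, Bub1b turned for lines and macrophages inside replicates 1 and 2 (-0.30). Between the lines, Cdc20 (0.17), Plk1 (0.03), Anln (0.09) and Top2a (0.06) turned there, and on leaving out 1 array Anln (-0.49 to 0.18) and Top2a (-0.83 to 0.02). How far background limits the low macrophage levels was not tested.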
